A study of Mus musculus with 17 samples.

Results

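The 10 genes examined here, H2-K1, H2-D1, B2m, Tap1, Tap2, Tapbp, Psmb8, Psmb9, Psmb10 and Erap1, encode the core of the MHC class I antigen processing pathway. They were taken from the deposited gene count table by gene symbol, and each symbol matched 1 of its 55421 genes. All 10 passed the filter on low values (more than 10 CPM, the count scaled to a common library size, in at least 2 libraries), as did 10481 genes in all. The table holds total RNA-Seq of lung fibroblast cultures, harvested at the first passage, from 17 Ephb4 f/f;Col1a2-CreERT2 mice, 1 library per mouse, and asks how loss of Ephb4 in Col1a2-expressing cells alters the fibroblast transcriptome during bleomycin-induced lung fibrosis. At 4 weeks of age the mice were injected on 5 days with 1 mg of 4-hydroxytamoxifen a day, which removes floxed Ephb4 where the Col1a2 promoter drives CreERT2 (Ephb4 CKO), or the corn oil vehicle (Ephb4 control), so that controls carried the same alleles and transgene. CKO and control mice thus also differed in exposure to 4-hydroxytamoxifen and in active Cre, which cannot be told apart from loss of Ephb4 here. At 6 weeks they received bleomycin (1.2 U/kg) or PBS into the trachea, and lungs were harvested 14 days later. The groups held 4 control PBS, 4 control bleomycin, 5 CKO PBS and 4 CKO bleomycin mice, numbered below only to name them. By label control PBS 1, control bleomycin 3 and 4, CKO PBS 1, 2 and 3, and CKO bleomycin 1 and 3 were male and the rest female.

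In the class I pathway, the proteasome cuts cytosolic proteins into peptides. After interferon exposure the catalytic subunits Psmb8, Psmb9 and Psmb10 replace their constitutive partners Psmb5, Psmb6 and Psmb7 to form the immunoproteasome. The Tap1-Tap2 transporter carries peptides into the endoplasmic reticulum, tapasin (Tapbp) bridges the transporter and the empty class I molecule, and the aminopeptidase Erap1 trims the peptides to length. The loaded complex of a heavy chain (H2-K1 or H2-D1) and beta-2 microglobulin (B2m) then travels to the cell surface for inspection by CD8 T cells. Almost all nucleated cells express the pathway, macrophages at high levels, and interferon gamma raises it in fibroblasts as in other cells.

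Promoter windows of the pathway come first, and those of H2-K1, H2-D1, B2m and Tap1 are printed. RefSeq windows on GRCm38.p6, from 250 bases before to 50 after each start site, were available for 9 of the 10 genes; Tap2 had none. They were searched on both strands for an interferon-response core (AANNGAAA), a kappa-B-like motif (GGGA, any 4 bases, then CC) and a cAMP-response motif (TGACG). Matches are in capitals, and where capitals run on, matches to the kappa-B-like motif on both strands overlap.

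H2-K1, chr17:34000284-34000583, minus strand: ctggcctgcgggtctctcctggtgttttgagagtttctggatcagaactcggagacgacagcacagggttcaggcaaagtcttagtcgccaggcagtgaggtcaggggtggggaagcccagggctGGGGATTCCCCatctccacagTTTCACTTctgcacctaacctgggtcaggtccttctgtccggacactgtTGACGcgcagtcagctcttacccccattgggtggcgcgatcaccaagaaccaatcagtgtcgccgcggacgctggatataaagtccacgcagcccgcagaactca
H2-D1, chr17:35262844-35263143, plus strand: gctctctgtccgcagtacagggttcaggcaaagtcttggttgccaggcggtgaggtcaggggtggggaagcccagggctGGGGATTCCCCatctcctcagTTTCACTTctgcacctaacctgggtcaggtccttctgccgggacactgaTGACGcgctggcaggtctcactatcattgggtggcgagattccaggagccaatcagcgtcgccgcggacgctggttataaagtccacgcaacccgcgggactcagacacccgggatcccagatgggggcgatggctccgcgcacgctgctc
B2m, chr2:122147437-122147736, plus strand: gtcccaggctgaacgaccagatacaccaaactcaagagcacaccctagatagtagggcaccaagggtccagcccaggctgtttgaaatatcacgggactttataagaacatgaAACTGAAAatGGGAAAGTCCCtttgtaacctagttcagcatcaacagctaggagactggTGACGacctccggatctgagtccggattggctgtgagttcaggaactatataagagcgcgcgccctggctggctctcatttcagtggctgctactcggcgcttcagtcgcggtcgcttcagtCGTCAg
Tap1, chr17:34187306-34187605, plus strand: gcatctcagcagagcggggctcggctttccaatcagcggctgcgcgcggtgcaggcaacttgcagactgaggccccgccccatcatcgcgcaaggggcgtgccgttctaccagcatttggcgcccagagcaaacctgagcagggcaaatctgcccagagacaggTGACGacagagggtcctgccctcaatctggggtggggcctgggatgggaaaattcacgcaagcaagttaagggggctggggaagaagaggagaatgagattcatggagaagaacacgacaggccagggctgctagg

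H2-K1 (1 of its 2 overlapping windows is shown), H2-D1 and B2m each held all 3 motifs, as did 0.719% of 32841 promoter windows of the same length. From the kappa-B-like match to the cAMP-response motif, H2-K1 and H2-D1 had 71 of 75 bases in common (94.7%, compared without gaps). Singly, the interferon-response core was found for 4 of the 9 genes (Erap1 was the fourth) and in 23.9% of all windows, and the kappa-B-like motif for 3 and in 20.7%. The cAMP-response motif was found for 5 and in 20.8%. Tapbp, Psmb8 and Psmb10 held none of the 3 motifs. Tap1 and Psmb9 lie head to head, their windows share 275 bases, and the match in both is the same site read from opposite strands. These matches describe letters in the windows and not occupied sites.

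Total counts per library ranged from 66540022 to 120554468 (median 93075927), and the lowest value of any of the 10 genes was 3.43 CPM (Psmb9), so counting error was small beside the differences between mice. The targeted gene, Ephb4, was measured at 24.2, 4.00, 33.5 and 2.32 CPM in the control PBS libraries and at 65.1, 13.2, 35.3 and 40.5 CPM in the control bleomycin libraries. It was measured at 7.70, 23.6, 8.97, 4.01 and 4.05 CPM in the CKO PBS libraries and at 14.0, 9.53, 10.1 and 4.93 CPM in the CKO bleomycin libraries. Controls and CKO therefore overlapped in Ephb4 after PBS (log2 fold change -0.73 ± 0.72 SE, edgeR adjusted p = 1) and also after bleomycin (-2.0 ± 0.79 SE, adjusted p = 0.22). The counts cover the whole gene, including any exons that remain after recombination. In 3 libraries (control bleomycin 2, CKO bleomycin 1 and CKO bleomycin 2) the Y-linked gene Ddx3y went against the labelled sex. The rule was below 1 CPM in a labelled male or above 1 CPM in a labelled female, and no other gene was used for it. Whether the sex label or the library itself was exchanged was not tested, so the group of these 3 libraries is in doubt too, and the comparisons that use them are also given without them. Without them Ephb4 did not overlap between controls and CKO after bleomycin (log2 fold change -2.68, edgeR adjusted p = 0.304). With the 2 CKO and 3 control libraries left, 2436 of all 10481 genes were likewise lower in CKO without overlap.

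The cultures are labelled as fibroblasts, but their markers varied widely. Over 14 fibroblast markers (Col1a1, Pdgfra and others), the summed level was 15.4 to 7894 CPM in control PBS, 6143 to 12610 in control bleomycin, 35.0 to 2033 in CKO PBS and 18.1 to 1711 in CKO bleomycin. Over 19 macrophage markers (Lyz2, Cd68 and others) it was 10800 to 47110, 1375 to 22180, 25330 to 45720 and 24940 to 45010 CPM in the same order. Both sums separated control bleomycin from CKO bleomycin completely. Over 12 lymphocyte markers the sum stayed between 0.629 and 57.0 CPM, and over 6 dendritic cell markers between 1.61 and 51.8 CPM. In bulk RNA from such cultures, fewer cells of a type and less RNA per cell cannot be told apart.

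The heavy chains and B2m were by far the most abundant of the 10 transcripts. Scaled by the summed length of their annotated exons, the median level over the 17 libraries was 2790 CPM per kb for B2m, 687 for H2-D1 and 311 for H2-K1, and each exceeded the next in 17 of 17 libraries. Tapbp followed at 47.3 CPM per kb and exceeded Psmb8 (28.5) in 16 libraries. Psmb8 and Psmb10 (21.9) did not separate, Psmb8 being higher in 8 of 17. Erap1 (12.1), Tap2 (6.36) and Tap1 (6.11) came next, with Tap2 above Tap1 in 10 of 17, and Psmb9 was lowest at 3.27 CPM per kb. The lengths join the exons of all annotated transcripts (3381 bases for Psmb8 and 3660 for Psmb9, but 860 for B2m). The ranking therefore depends on which transcripts were expressed, which was not tested. The classical H2-K1 and H2-D1 share long stretches with each other and with other H2 genes, so how StringTie divided reads between them leaves each single value uncertain.

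H2-K1, located at chr17:33996017-34000347 (GRCm38, minus strand), presents peptides as the K heavy chain. It measured 526, 1387, 348 and 1426 CPM in control PBS and 223, 541, 345 and 282 CPM in control bleomycin. In CKO PBS it measured 4569, 675, 914, 985 and 3245 CPM, and in CKO bleomycin 1678, 496, 1392 and 1048 CPM. CKO PBS 1 and 5 stood far above every other library. Control bleomycin was the lowest group, overlapping CKO bleomycin only through CKO bleomycin 2.

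H2-D1, at chr17:35262730-35267499 (plus strand), encodes the D heavy chain. Its levels were 1235, 2189, 480 and 3141 CPM in control PBS against 235, 1463, 884 and 593 CPM in control bleomycin. They were 7200, 1534, 1541, 2132 and 5108 CPM in CKO PBS against 3367, 1928, 1772 and 2647 CPM in CKO bleomycin. Every CKO bleomycin library lay above every control bleomycin library. The mean ± SD after bleomycin was 2429 ± 733 CPM in CKO (n = 4) and 794 ± 519 CPM in controls (n = 4).

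B2m, the invariant light chain, lies outside the MHC at chr2:122147686-122153083 (plus strand). The control PBS libraries gave 2049, 2963, 1071 and 4866 CPM, and the control bleomycin libraries 414, 1577, 1308 and 960 CPM. The CKO PBS libraries gave 13060, 2399, 2318, 3914 and 6828 CPM, and the CKO bleomycin libraries 3944, 2127, 2922 and 3496 CPM. The bleomycin groups did not overlap, at 3122 ± 784 CPM in CKO and 1065 ± 502 CPM in controls (mean ± SD, n = 4 each).

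Tap1, at chr17:34187553-34197225 (plus strand), is one subunit of the peptide transporter. Its control values were 17.0, 94.7, 22.6 and 67.0 CPM after PBS and 15.7, 28.9, 18.1 and 18.1 CPM after bleomycin. Its CKO values were 292, 20.3, 75.4, 33.4 and 232 CPM after PBS and 86.1, 19.2, 89.0 and 47.8 CPM after bleomycin. The spread within CKO PBS, from 20.3 to 292 CPM, was wider than any difference between group medians. The other subunit, Tap2 (chr17:34203527-34216321, plus strand), ranged from 14.2 to 117 CPM with the same extremes, control bleomycin 1 and CKO PBS 1.

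Tapbp, at chr17:33915899-33929292 (plus strand), encodes tapasin. In controls it stood at 137, 118, 71.8 and 411 CPM after PBS and at 57.1, 142, 112 and 89.8 CPM after bleomycin. In CKO it stood at 853, 185, 174, 206 and 532 CPM after PBS and at 298, 142, 172 and 346 CPM after bleomycin. The lowest CKO bleomycin value (142.2 CPM) and the highest control bleomycin value (142.1 CPM) were almost the same, so the groups were separated only narrowly.

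Psmb8, at chr17:34197721-34201454 (plus strand), is the immunoproteasome subunit with chymotrypsin-like activity. The control libraries held 47.3, 120, 48.7 and 181 CPM after PBS and 29.8, 59.7, 35.0 and 31.3 CPM after bleomycin. The CKO libraries held 300.4, 48.4, 130, 96.2 and 296 CPM after PBS and 141, 55.7, 132 and 120 CPM after bleomycin. Psmb9 (chr17:34181987-34187764, minus strand), which overlaps the start of Tap1 on the other strand, read 6.60, 30.2, 8.80 and 26.8 CPM in control PBS and 3.43, 8.41, 6.59 and 6.36 CPM in control bleomycin. It read 62.2, 6.77, 27.2, 11.95 and 64.3 CPM in CKO PBS and 23.5, 8.30, 29.1 and 22.4 CPM in CKO bleomycin. For both subunits 3 of the 4 CKO bleomycin libraries lay above all 4 control bleomycin libraries, and CKO bleomycin 2 lay among them. Psmb10 (chr8:105935735-105938444, minus strand) ranged from 18.4 to 159 CPM, and Erap1 (chr13:74639568-74693201, plus strand) from 33.7 to 196 CPM, the narrowest range of the 10.

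**Figure D1:**
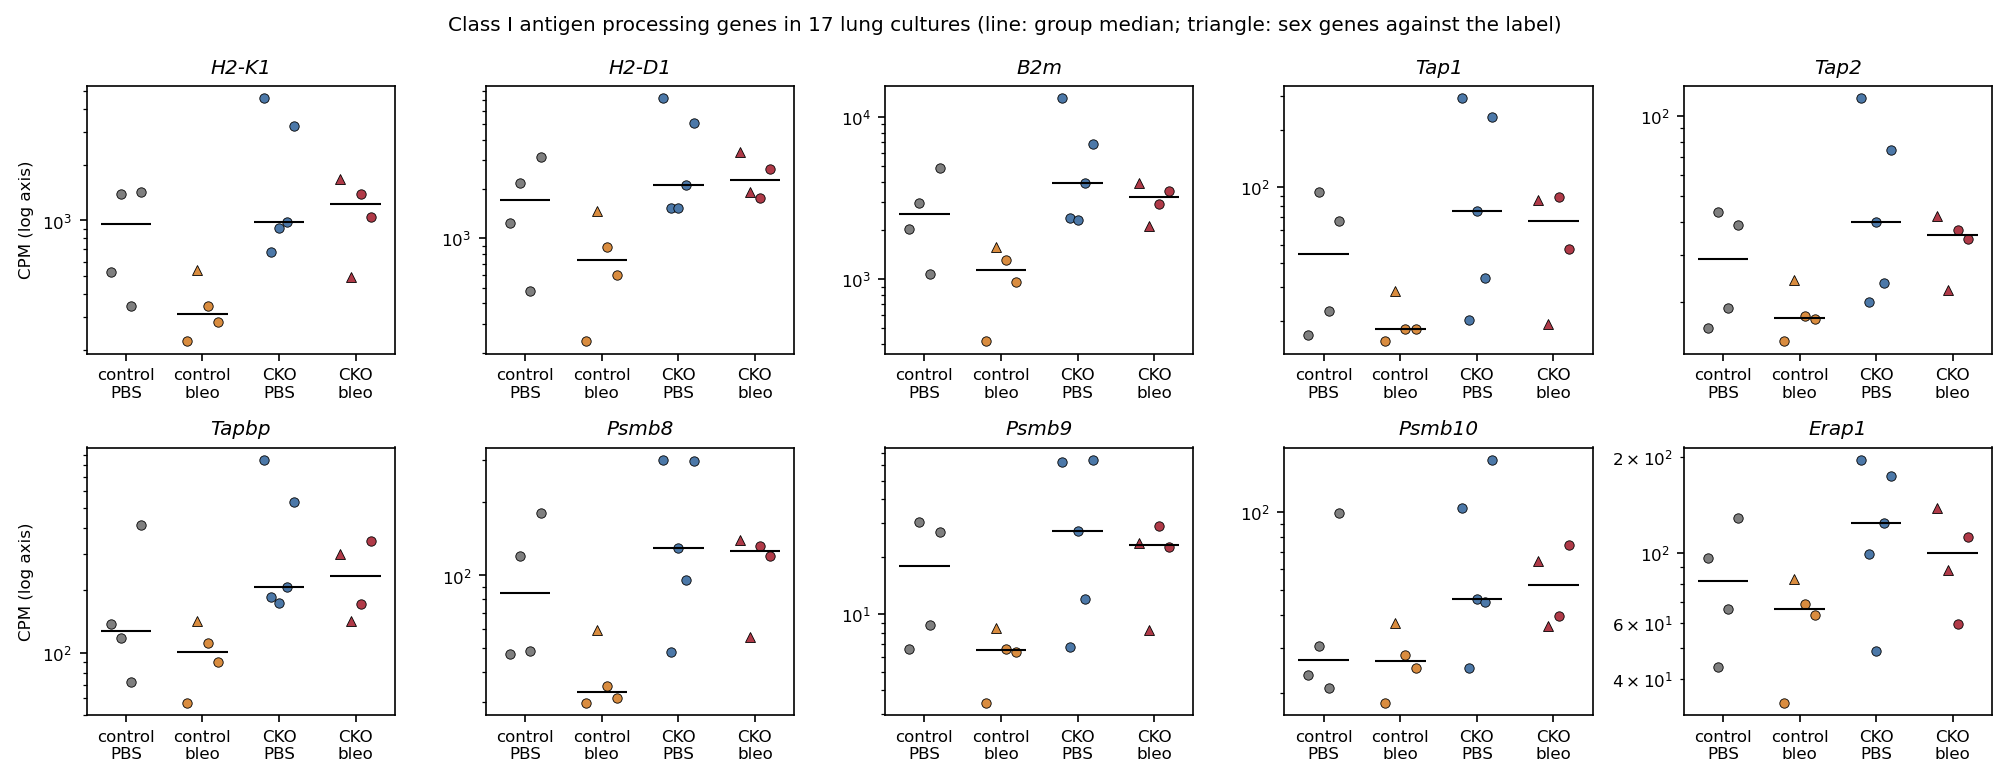
Each panel shows 1 gene, with CPM on a log axis and 1 point per mouse in the 4 groups. Lines are group medians, and triangles mark the 3 libraries whose Ddx3y level goes against the sex label. Control bleomycin 1 was the lowest library for all 10 genes, and CKO PBS 1 or CKO PBS 5 the highest.

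The genes shared these extremes. Control bleomycin 1, the library with the lowest macrophage sum (1375 CPM), was lowest of the 17 for all 10 genes, and CKO PBS 1 was highest for 8 and CKO PBS 5 for 2. The highest and the lowest library differed 30.7-fold for H2-D1, 31.6-fold for B2m, 20.5-fold for H2-K1 and 5.83-fold for Erap1. Over the 45 pairs of genes, Pearson's r of log2 CPM across the 17 libraries ran from 0.476 (Tap1 and Erap1) to 0.982 (Tap1 and Tap2), with a median of 0.863. With group means removed it ran from 0.246 to 0.973, with a median of 0.804, so the genes also varied together among mice of the same group. These are descriptions over libraries that also share depth and cell content.

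The 2 highest libraries were also the only 2 of the 17 with Ifng or Ifnb1 above 1 CPM, transcripts which were looked at by library after their values had been seen. Ifng, encoding interferon gamma, had 394 counts (4.80 CPM) in CKO PBS 1 and at most 12 counts in each of the other 16 libraries. Those 12 counts (0.0993 CPM) were in control bleomycin 1, the library lowest for all 10 class I genes. Ifnb1, encoding interferon beta, had 227 counts (2.81 CPM) in CKO PBS 5 and at most 16 counts elsewhere. Counts above the floor of 3 per library were also found in 4 other libraries for Ifng and 5 for Ifnb1. Whether these ligands had a part in the class I levels was not tested.

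Bleomycin was compared with PBS in Ephb4 control cultures to see how injury alone moved the pathway. All 10 genes had a negative log2 fold change, with a median of -1.23 beside -0.06 over all 10481 genes. The values, with their SE from edgeR's quasi-likelihood fit over the 17 libraries, were -1.55 ± 0.68 for Psmb9, -1.41 ± 0.64 for H2-K1, -1.36 ± 0.58 for B2m and -1.35 ± 0.56 for Psmb8. They were -1.32 ± 0.77 for Tap1, -1.15 ± 0.65 for H2-D1, -0.88 ± 0.60 for Tapbp, -0.68 ± 0.49 for Tap2, -0.68 ± 0.57 for Psmb10 and -0.43 ± 0.42 for Erap1. None reached an adjusted p under 0.05 (smallest 0.33), and neither did any other gene (0%). At an unadjusted p under 0.05, 4 of the 10 were lower, against 7.98% of all genes. With labelled sex as a covariate it was 1 of the 10, beside 1356 of all 10481 genes in either direction. No gene of the 10 had groups that did not overlap in this direction, as 3.20% of all genes had. The median was -0.52 among the 2 and 2 libraries of the first sorted run of table columns, where 3 of the 10 genes had a positive difference of mean log2 CPM, and -1.50 among those of the second run. The number at an unadjusted p under 0.05 was 0 without control PBS 2, control PBS 4, control bleomycin 1 or control bleomycin 4 and 1 without control bleomycin 3, and the median without control PBS 4 was -0.80. Over all 10481 genes the numbers in either direction were 743, 1023, 811, 1136 and 1331 in these fits, in the same order. The median was -1.56 without the 3 libraries against their sex label, and 4 of the 10 were lower at an unadjusted p under 0.05, against 5.54% of all genes. In that fit 3 of the 10 were lower without overlap, as were 538 of all 10481 genes. The macrophage markers (median -0.86, 16 of 19 negative) and the fibroblast markers (2.49, 13 of 13 positive) differed between the same groups without an adjusted p under 0.05. With the fibroblast score as a covariate the median of the 10 was -0.16, and with the macrophage score it was -0.64, and the parts of cell content and injury cannot be told apart here.

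Ephb4 CKO was compared with control after PBS to see how they differed without injury. All 10 log2 fold changes were positive, from 0.61 ± 0.41 (SE) for Erap1 to 1.38 ± 0.75 for Tap1, with H2-K1 at 1.17 ± 0.61 and B2m at 1.06 ± 0.56. Their median was 0.96, beside -0.02 over all genes. By edgeR none had an adjusted p under 0.05 (each was 1; all genes, 0%), and none an unadjusted p under 0.05, against 1.43% of all genes in this direction. All groups overlapped for the 10 genes, whereas 0.0286% of all genes were higher without overlap. Among the cell type markers, 16 of 19 macrophage markers had a positive value (median 0.44) and 11 of 13 fibroblast markers a negative one (median -2.02) in the same comparison, and their part in the result was not tested apart from the fits with a marker score (median of the 10 genes 0.78 with the macrophage score and 1.15 with the fibroblast score). The difference rested on CKO PBS 1 and CKO PBS 5. Without these 2 libraries, an alternative chosen after seeing the data, the median was -0.11, and 7 of the 10 genes had a negative value. Without control PBS 4 it was 1.45, and without CKO PBS 1 alone it was 0.58. Up to 4 genes had an unadjusted p under 0.05 once control PBS 2 or 4, or CKO PBS 2, 3 or 4, was left out. Over all 10481 genes 188, 702, 457, 549 and 288 were at that threshold in these fits, in the same order and in either direction.

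The comparison of Ephb4 CKO with control after bleomycin gave the largest median difference of the 4 pairwise comparisons. All 10 genes were again positive, with a median log2 fold change of 1.54 beside 0.01 over all genes. Among the presenting chains, H2-K1 stood at 1.73 ± 0.65 (SE), H2-D1 at 1.61 ± 0.65 and B2m at 1.55 ± 0.59. In the loading machinery Tap1 stood at 1.58 ± 0.78, Tapbp at 1.26 ± 0.60 and Tap2 at 0.89 ± 0.49. Of the immunoproteasome subunits Psmb9 had 1.75 ± 0.68, Psmb8 1.53 ± 0.57 and Psmb10 0.99 ± 0.57, and the trimming enzyme Erap1 had 0.68 ± 0.43.

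By edgeR none of the 10 passed an adjusted p of 0.05 (0.218 to 0.346), and no gene of the table did (0%). At an unadjusted p under 0.05, 5 of the 10 were higher (H2-K1, H2-D1, B2m, Psmb8 and Psmb9), against 11.0% of all genes. The groups did not overlap for 3 of the 10 (H2-D1, B2m and Tapbp), against 11.0% of all genes in that direction. Control bleomycin 2 was the highest control library for all 10 genes and CKO bleomycin 2 the lowest CKO library for 8. Both belong to the 3 libraries whose Ddx3y level goes against the sex label and whose group is therefore in doubt. Without those 3, the difference rested on 2 CKO and 3 control libraries, the median was 1.86, and 9 of the 10 genes did not overlap, against 25.3% of all genes. Within the runs of columns the median difference of mean log2 CPM was 1.30 and 1.41, each from 2 against 2 libraries, with all 10 genes positive in both. The number at an unadjusted p under 0.05 was 1 without control bleomycin 1 and 7 without CKO bleomycin 2. Over all 10481 genes it was 1040 in the first of these fits and 2375 in the second, in either direction.

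**Figure D2:**
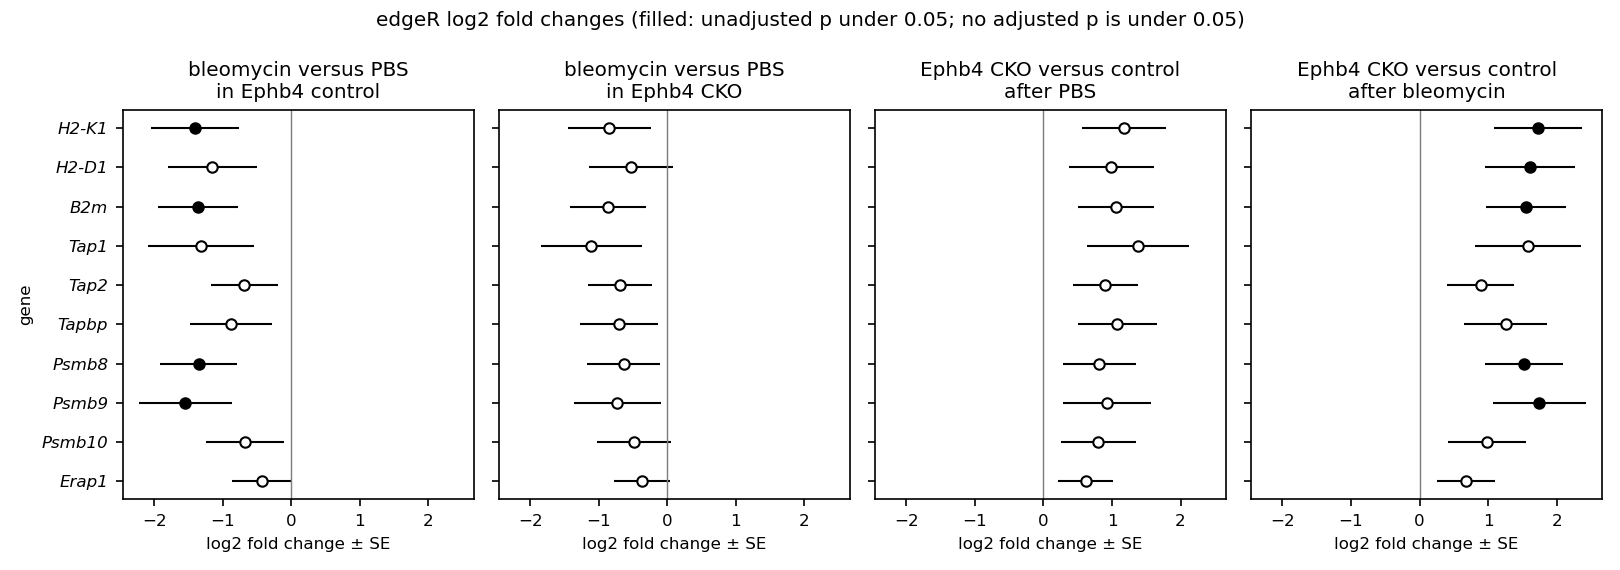
Points are edgeR log2 fold changes with SE bars for the 10 genes in the 4 pairwise comparisons, filled where the unadjusted p was under 0.05 and open otherwise. All points lie below 0 in both comparisons of bleomycin with PBS and above 0 in both comparisons of Ephb4 CKO with control.

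Macrophage and fibroblast markers differed between the same groups. After bleomycin, 19 of 19 macrophage markers had a positive log2 fold change in CKO (median 1.181), including Marco (3.92 ± 1.30), Itgax (1.94 ± 0.81), Cd68 (1.74 ± 0.75) and Csf1r (1.26 ± 0.56), all with adjusted p between 0.208 and 0.233. All 13 fibroblast markers that passed the filter were negative (median -3.52), including Postn (-4.83 ± 2.04), Col1a1 (-4.70 ± 2.01), Col5a1 (-3.85 ± 1.69) and Col3a1 (-5.38 ± 2.66), with adjusted p from 0.227 to 0.257. At an unadjusted p under 0.05, 3 of these 13 were lower, against 9.18% of all genes, and 11 did not overlap, against 12.2%. Without the 3 libraries against their sex label the fibroblast median was -6.19 and the macrophage median 1.47, with 16 of 19 macrophage markers positive. With the macrophage score as a covariate the median of the 10 class I genes after bleomycin was 0.78, and with the fibroblast score 0.70. In both fits all 10 were positive and none had an unadjusted p under 0.05. Of all 10481 genes, 439 and 420 were at that threshold in these fits, in either direction, beside 2119 without a covariate. The part of cell content in the difference and those of Ephb4 loss and of 4-hydroxytamoxifen itself cannot be told apart in these libraries. Of the other marker lists, 1 lymphocyte gene (Cd2) and 1 dendritic cell gene (Clec9a) passed the filter, at 0.83 ± 0.97 and 1.27 ± 1.20, and the medians of 6 endothelial and 5 epithelial markers were -0.97 and -0.18.

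**Figure D3:**
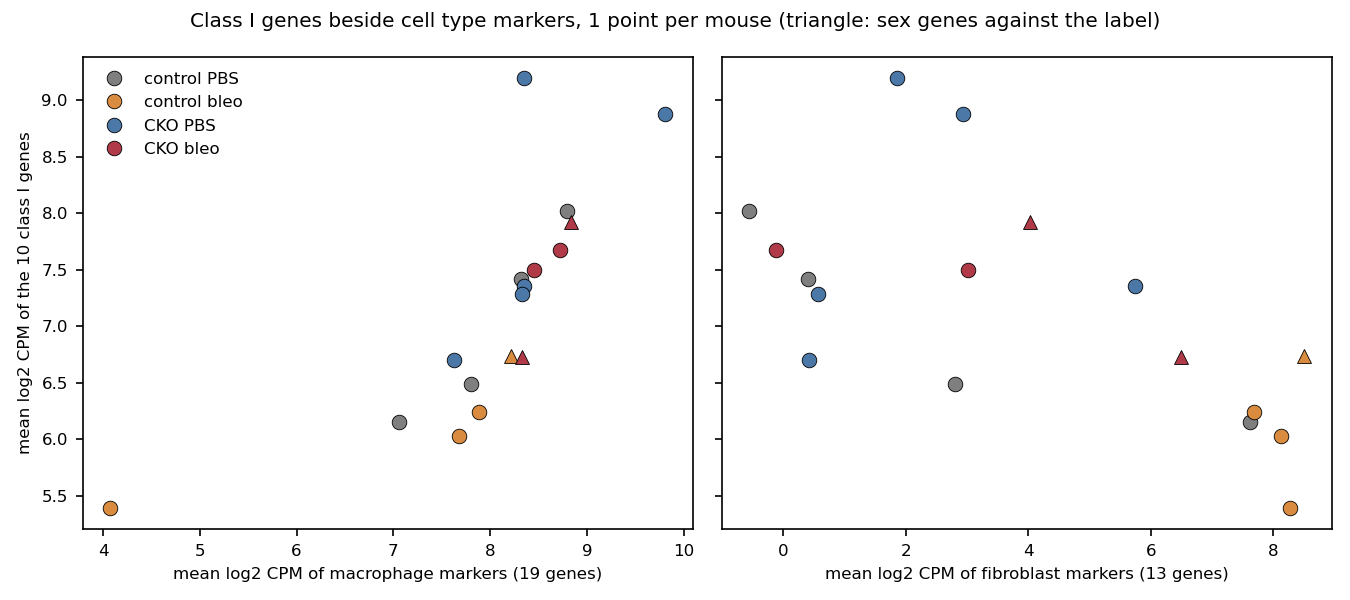
The mean log2 CPM of the 10 class I genes is plotted against that of 19 macrophage markers (left) and 13 fibroblast markers (right), 1 point per mouse, coloured by group. Triangles mark the 3 libraries whose Ddx3y level goes against the sex label. Control bleomycin 1 lies lowest at 5.40 with a macrophage mean of 4.08, while CKO PBS 1 and CKO PBS 5 lie highest at 9.19 and 8.88.

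Bleomycin was also compared with PBS in Ephb4 CKO cultures. The 10 log2 fold changes were negative, from -0.37 ± 0.40 (SE) for Erap1 to -1.11 ± 0.74 for Tap1, with a median of -0.70 beside -0.03 over all genes. None had an adjusted p under 0.05 by edgeR (each was 1; all genes, 0%) or an unadjusted p under 0.05 (0.716% of all genes were lower at that threshold), and the groups overlapped for all 10 (0.00954% of all genes were lower without overlap). The direction rested on CKO PBS 1 and CKO PBS 5. Without these 2 libraries, an alternative chosen after seeing the data, the median was 0.40 and all 10 values were positive. Leaving out the highest libraries of the PBS group raises these values by construction, so this is a description only. Without CKO PBS 1 alone the median was -0.33, and without the 3 libraries against their sex label, which left 2 CKO bleomycin mice, it was -0.64.

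The interaction term, the difference between the bleomycin effects in CKO and in control, had a median of 0.35 over the 10 genes beside 0.00 over all genes, and ranged from -0.01 ± 0.67 (SE) for Tap2 to 0.82 ± 0.91 for Psmb9. By edgeR the smallest adjusted p was 0.92 (all genes, 0%), and none had an unadjusted p under 0.05, against 1.89% of all genes above 0. The bleomycin effect on the class I genes was therefore not shown to differ between CKO and control. Without CKO PBS 1 the median was 0.83, and without control PBS 4 it was 0.05. Without CKO PBS 1 and 5, an alternative chosen after seeing the data, it was 1.55. It was 0.64 without the 3 libraries against their sex label. With a marker score as a covariate its direction turned, to -0.49 with the fibroblast score (none of the 10 positive) and -0.16 with the macrophage score (3 of 10 positive). The 4 pairwise comparisons share groups, so their directions are not independent of one another.

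DESeq2 was run on the same genes without a batch term. It called none of the 10 in any comparison, with smallest adjusted p of 0.0802 for H2-K1, 0.0859 for B2m and 0.086 for Psmb8 in Ephb4 CKO versus control after bleomycin. In that comparison it called 3.81% of all genes. It called 1.58% for bleomycin versus PBS in controls, 0.00954% for CKO versus control after PBS, 0.00954% for bleomycin versus PBS in CKO, and 0% for the interaction.

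The ratio of each immunosubunit to its constitutive partner does not depend on library scaling. After bleomycin the constitutive subunits had CKO over control log2 fold changes of 0.41 ± 0.28 (SE) for Psmb5, 0.75 ± 0.36 for Psmb6 and 0.07 ± 0.19 for Psmb7 (edgeR adjusted p 0.396, 0.249 and 0.85). Psmb6 was higher without overlap, as were 11.0% of all genes. The log2 ratio of Psmb8 to Psmb5 was 0.42 ± 0.57 in CKO bleomycin and -0.70 ± 0.59 in control bleomycin (mean ± SD, n = 4 each), a difference of 1.12 (2-sided exact permutation test, p = 0.0857, adjusted p = 0.257 over 12 tests). For Psmb9 to Psmb6 the means were -3.33 ± 0.61 and -4.30 ± 0.58, a difference of 0.96 (exact permutation p = 0.0571, adjusted 0.257). For Psmb10 to Psmb7 they were -0.69 ± 0.47 and -1.59 ± 0.64, a difference of 0.91 (exact permutation p = 0.0857, adjusted 0.257). With 4 against 4 mice the smallest p this test allows is 0.0286. With that p for all 3 ratios after bleomycin, the adjusted p over 12 tests would exceed 0.05 unless other comparisons also gave small p-values. The adjusted p-values after bleomycin therefore cannot decide whether the ratios differed. In the other 3 comparisons the differences ran from -0.81 to 0.87, with adjusted p between 0.257 and 0.778, so none of the 12 passed. Without the 3 libraries against their sex label the differences after bleomycin were 1.37, 1.35 and 0.99 (exact permutation tests, adjusted p 0.343, 0.343 and 0.4). With 2 CKO against 3 control mice this test cannot give a p under 0.05, so these p-values decide nothing. In the other 3 comparisons the differences ran from -1.07 to 0.87.

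**Figure D4:**
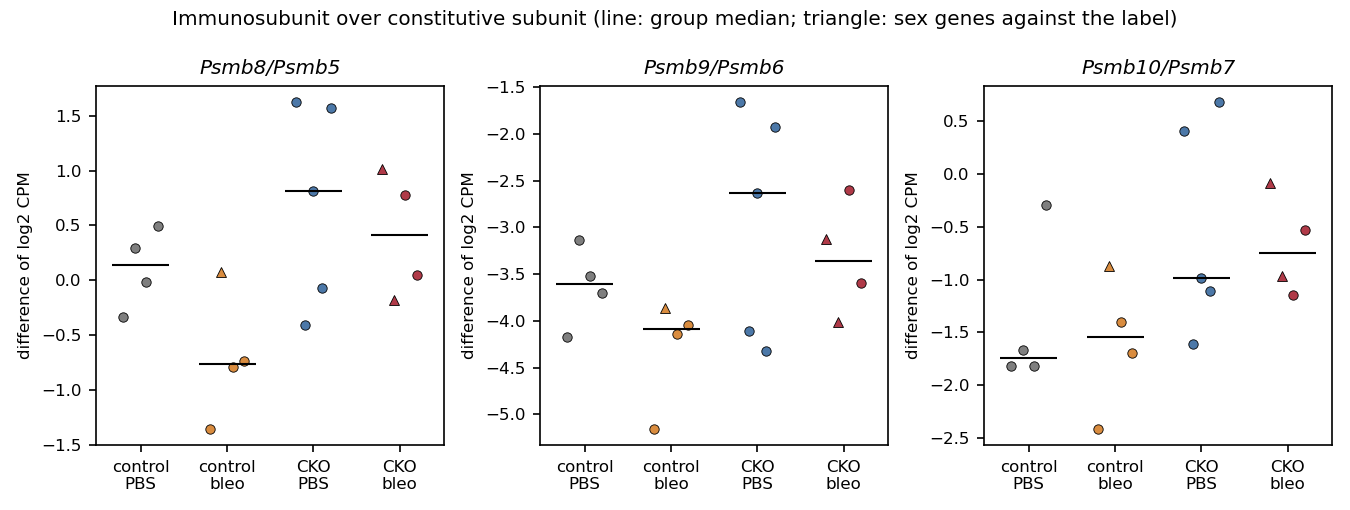
The difference of log2 CPM between each immunosubunit and its constitutive partner is shown per mouse in the 4 groups, with lines at group medians. Triangles mark the 3 libraries whose Ddx3y level goes against the sex label. The ratio of Psmb9 to Psmb6 lay between -5.15 and -3.86 in control bleomycin and between -4.01 and -2.60 in CKO bleomycin.

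The rest of the pathway was followed in lists of related genes, here in Ephb4 CKO versus control after bleomycin and without any gene at an adjusted p under 0.05 by edgeR. Of 13 other class I heavy chain genes (the H2-Q, H2-T and H2-M families, mostly nonclassical class I molecules), 11 passed the filter. All 11 had positive log2 fold changes (median 1.74), 7 had an unadjusted p under 0.05 (11.0% of all genes), and for all 11 the groups did not overlap (11.0% of all genes). Without the 3 libraries against their sex label the median was 1.999, 4 had an unadjusted p under 0.05 (7.61% of all genes) and 11 did not overlap (25.3% of all genes). The smallest p belonged to H2-Q6 (2.52 ± 0.93 SE), H2-Q7 (2.27 ± 0.89), H2-Q4 (1.89 ± 0.75) and H2-Q10 (1.70 ± 0.69). H2-Q7, for example, averaged 68.1 ± 37.4 CPM in CKO and 14.1 ± 6.09 CPM in control bleomycin (SD, n = 4 each). These genes are near copies of each other, and the reads of one may be counted for another.

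The helpers of assembly divided. Among the proteasome activators and assembly factors, the PA28 subunits Psme1 (0.99 ± 0.42) and Psme2 (1.10 ± 0.49) were the 2 of 5 higher at an unadjusted p under 0.05 (11.0% of all genes), while Pomp stood at 0.54 ± 0.31 and the nuclear activator Psme3 at -0.13 ± 0.14. The general chaperones of the endoplasmic reticulum did not share the sign of the class I genes. Pdia3, the disulphide isomerase of the loading complex, was at -0.47 ± 0.17 and lower without overlap, as were 12.2% of all genes. Hspa5 was at -0.49 ± 0.31 and calnexin (Canx) at -0.28 ± 0.22, whereas the tapasin relative Tapbpl was at 0.53 ± 0.44. The median of the 5 chaperones was -0.28. Of 6 other peptidases that trim or destroy peptides, Thop1 (-0.44 ± 0.17) and Blmh (-0.48 ± 0.22) were lower at an unadjusted p under 0.05 (9.18% of all genes), Lnpep was at 0.42 ± 0.35 and Npepps at 0.21 ± 0.25, and the list's median was -0.08. Without the 3 libraries against their sex label the medians were 0.59 for the activators, -0.42 for the chaperones and -0.19 for the peptidases.

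Of 17 regulators of class I transcription and interferon signalling that passed the filter, 15 were positive (median 0.37) and 4 were higher at an unadjusted p under 0.05, against 11.0% of all genes. These were Nlrc5, the class I transactivator (1.82 ± 0.73), and the interferon regulatory factors Irf2 (0.82 ± 0.32), Irf8 (1.35 ± 0.58) and Irf9 (0.98 ± 0.46). Nlrc5 averaged 39.7 ± 14.2 CPM in CKO and 11.2 ± 6.08 CPM in control bleomycin (SD, n = 4 each), without overlap (11.0% of all genes were higher without overlap). All 6 MHC class II genes that passed the filter were positive (median 1.48), with H2-DMb1 at 1.19 ± 0.44, H2-Aa at 2.48 ± 1.21, H2-DMa at 0.83 ± 0.46 and H2-Eb1 at 2.15 ± 1.21, and 1 of the 6 was higher at an unadjusted p under 0.05, against the same 11.0%. Without the 3 libraries against their sex label 4 regulators (median 0.52) and 2 class II genes (median 1.98) were higher at that threshold, against 7.61% of all genes. A list of 13 ubiquitin and COPII genes from the study's NanoString CodeSet went the other way, with all 13 negative (median -0.81) and at an unadjusted p under 0.05 (9.18% of all genes), led by Sec31a (-1.11 ± 0.22) and with Ubac1 at -0.62 ± 0.16, Sec23a at -1.55 ± 0.40 and Sec24d at -1.32 ± 0.34. Their median was -1.14 without the 3 libraries, and all 13 were lower at that threshold, against 8.58% of all genes. The study chose those genes on these samples, so their direction is not independent evidence.

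**Figure D5:**
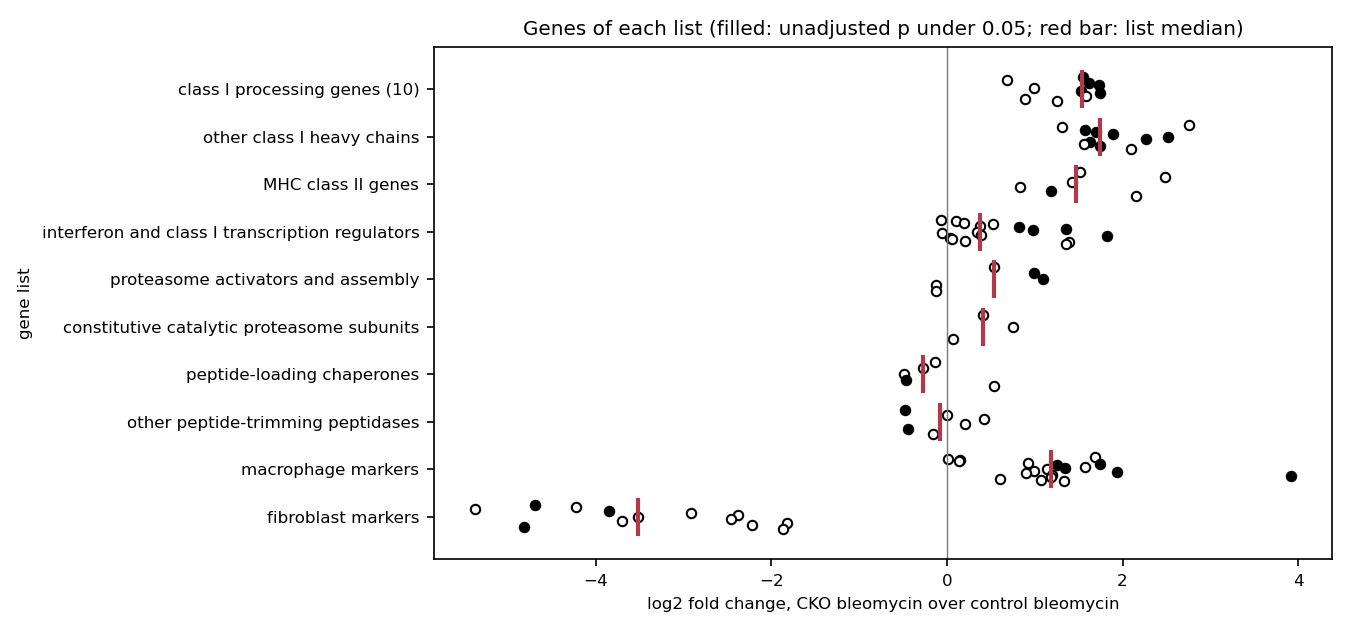
Each point is the edgeR log2 fold change of 1 gene in Ephb4 CKO versus control after bleomycin, by gene list, filled where the unadjusted p was under 0.05; red bars are list medians. The class I processing genes (median 1.54), other heavy chains (1.74) and class II genes (1.48) lie on the same side as the macrophage markers (1.181), and the fibroblast markers (-3.52) lie opposite.

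The genes outside these lists whose log2 CPM over the 17 libraries was most like the mean z-scored log2 CPM of the 10 (Pearson's r, a description over libraries that share depth and cell content) were Gm12250 (0.98), Rnaset2a (0.979), Shisa5 (0.974), Trim34a (0.972) and Gbp10 (0.969). Gm12250 averaged 29.6 ± 35.5 CPM in CKO PBS (n = 5) and 1.75 ± 1.55 CPM in control bleomycin (n = 4; SD). Within the lists, by genes named after their values were seen, Nlrc5 (0.983), H2-T22 (0.975) and H2-T23 (0.974) were as close, while the chaperones Canx (-0.07) and Pdia3 (-0.48) were not.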

How the data were processed

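Per the labels and the study's methods, total RNA from 17 cultures was depleted of ribosomal RNA, made into stranded libraries and sequenced as paired ends. The submitters' processing notes name cutadapt 1.18, HISAT2 2.1.0, StringTie and GRCm38. The authors deposited whole-number StringTie counts per gene, which count reads with strand; they can be split between near-identical H2 genes. The study fitted a batch term, but which library belongs to which batch is not given in the sources used here, and the 2 sorted runs of table columns stood in for it as an alternative.

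From the deposited counts, genes above 10 CPM in at least 2 libraries were kept (10481 of 55421), scaled by TMM and fitted with edgeR 4.0.16 (R 4.3.3) by quasi-likelihood with 1 mean per group over the 17 libraries. P-values set the difference between groups against the spread between mice, estimated over the 17 libraries together. They were adjusted by Benjamini-Hochberg over all genes kept, with a threshold of 0.05. The SE is the absolute log2 fold change divided by the square root of F. Log2 CPM used a prior count of 2. The biological coefficient of variation was 0.557. Subunit ratios were compared by 2-sided exact permutation tests, adjusted over 12. Scripts were tested on simulated data, where recovery of every changed gene was required only at a lower dispersion than that of these data. Alternatives used DESeq2 1.42.0, limma 3.58.1 voom, other scalings, filters and covariates, and left out libraries.

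The 10 genes and the gene lists were chosen with earlier results of these data known. Named were all 10 genes, Ephb4, the constitutive subunits, up to 4 genes per list with the smallest p in Ephb4 CKO versus control after bleomycin, and the 5 genes most alike.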

Additional observations from a re-analysis of the deposited data

Results flagged for a closer look

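Of 52 groups of values examined, 2 held a library far from the rest, where chance gives about 1 in 20 groups. The log2 CPM of Psmb8 in CKO bleomycin was 5.80 in CKO bleomycin 2 and 6.91 in the nearest library, a gap of 0.83 of the range of the group, just above Dixon's 95% critical value for 4 samples. This library is one of the 3 whose Ddx3y level goes against the sex label. The log2 ratio of Psmb10 to Psmb7 in control PBS was -0.29 in control PBS 4 and -1.66 in the nearest library, a gap of 0.897 of the range. Control PBS 4 also had the lowest mean log2 CPM of fibroblast markers (-0.56). The cause was not tested in either case.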

How the results depend on the processing

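No alternative run brought any of the 10 below an adjusted p of 0.05 in any comparison (edgeR, DESeq2 or limma voom), although over all genes DESeq2 called 399 in Ephb4 CKO versus control after bleomycin and 166 in bleomycin versus PBS in controls, where edgeR called 0. At an unadjusted p under 0.05 edgeR had 2119 and 1494 genes there, and 209, 101 and 363 in CKO versus control after PBS, bleomycin versus PBS in CKO and the interaction. In Ephb4 CKO versus control after bleomycin the sign of every gene held in 300 of 300 recomputed values. These repeat 10 correlated genes over 30 settings that share most libraries. Where a PBS library was left out, it belonged to neither group compared, so the sign could hardly change. The count is therefore a description and not independent support. In that comparison the median log2 fold change moved to 0.78 with the macrophage score as a covariate and to 0.70 with the fibroblast score. With the fibroblast score it moved to -0.16 in bleomycin versus PBS in controls, where H2-D1 (0.18), Tapbp (0.44) and Psmb10 (0.28) reversed, and to -0.49 for the interaction, where H2-K1 (-0.52), H2-D1 (-0.48), B2m (-0.51), Tap1 (-0.72), Tapbp (-0.996), Psmb8 (-0.11), Psmb9 (-0.058), Psmb10 (-0.71) and Erap1 (-0.25) reversed. With the macrophage score the interaction reversed for H2-D1 (-0.058), B2m (-0.082), Tap1 (-0.26), Tapbp (-0.40), Psmb10 (-0.37) and Erap1 (-0.24).

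Without the 2 libraries above 1 CPM of Ifng or Ifnb1, an alternative chosen after seeing the data, the median was -0.11 in CKO versus control after PBS, and H2-K1 (-0.12), H2-D1 (-0.032), Tap1 (-0.24), Tap2 (-0.10), Psmb8 (-0.13), Psmb9 (-0.26) and Psmb10 (-0.18) reversed. In bleomycin versus PBS in CKO the median was 0.40, with H2-K1 (0.45), H2-D1 (0.50), B2m (0.14), Tap1 (0.51), Tap2 (0.31), Tapbp (0.36), Psmb8 (0.31), Psmb9 (0.46), Psmb10 (0.49) and Erap1 (0.15) reversed. The interaction median was 1.55 and Tap2 reversed (0.97). Tap2 also reversed for the interaction with upper quartile scaling (0.028), voom (0.18) and without the 3 libraries against their sex label (0.18), and Erap1 with the column run in DESeq2 (-0.008) and without those 3 libraries (-0.036).

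With single libraries left out, Psmb10 ran from -0.88 to 0.12 in bleomycin versus PBS in controls. For the interaction Tap1 ran from -0.34 to 0.70, Tap2 from -0.30 to 0.44, Tapbp from -0.58 to 0.65, Psmb10 from -0.61 to 0.65 and Erap1 from -0.22 to 0.25. The log2 ratio of Psmb10 to Psmb7 ran from -0.44 to 0.14 in bleomycin versus PBS in CKO and from -0.44 to 0.17 in controls. The cause was not tested. No paired analysis was possible because the groups of no pairwise comparison share a number in the labels; 2 animal numbers recur with the other sex letter, in groups not compared directly, and what a shared number means is not given in the sources used here. The spread between mice, not depth, set the precision.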
